A study of Mus musculus with 12 samples.

Results

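The genes described here are 39 nuclear receptor genes, chosen by symbol, of the 54532 genes counted in RNA-seq of 12 mouse colon samples. Nuclear receptors are transcription factors with a zinc finger DNA-binding domain, and many of them are switched by a small fat-soluble ligand that enters the cell. The endocrine receptors bind hormones and vitamins (glucocorticoid, aldosterone, estrogen, thyroid hormone, vitamin D, retinoic acid), the lipid and xenobiotic sensors bind fatty acids, oxysterols, bile acids and foreign chemicals, usually as dimers with a retinoid X receptor, and the orphan receptors are those named before a ligand was known. In the gut, HNF4 receptors maintain enterocyte genes, FXR and PXR respond to bile acids and drugs, and VDR to vitamin D and a secondary bile acid.

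Male C57BL/6 mice, received at 6 weeks of age and adapted for a week, formed 4 groups, each with 3 sequenced colon samples, and no allele or transgene was involved. Con drank no DSS, and DSS received dextran sulfate sodium, a polymer that injures the colon epithelium, as a 3% (w/v) drinking solution over 5 days. In UA+DSS, ursolic acid (UA, a plant triterpenoid) was gavaged at 200 mg/kg daily for 7 days from 1 day before DSS, and in DSS+UA for 4 days from 3 days after DSS began; the methods give Con and DSS a vehicle gavage, where the sample labels call Con untreated. These durations are those of the study's methods, and its discussion does not give the same ones for UA. The labels name Trizol and the methods an RNeasy kit for the RNA, and neither says which stretch of colon was taken or whether each sample is 1 mouse, so the p-values measure the spread between these samples. A library is named by group and replicate number (DSS 2 is replicate 2 of DSS).

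Total counts were 15566216 to 19498383 per library, and values are CPM (counts scaled to a common library size by TMM). The 17658 genes that passed a filter on low counts were tested in 1 edgeR fit of all 12 libraries, and a gene is called raised or lowered where its adjusted p was under 0.05. A fold change is the fitted one, and the range after an adjusted p is that over the alternatives (other scalings, filters, tools and covariates, and leaving out libraries). All 12 libraries held the epithelial marker Epcam, at 774 to 2328 CPM. DSS 2 and DSS+UA 3 also held transcripts typical of small intestine, with Fabp1 at 197 and 61.4 CPM and Apoa1 at 785 and 166 CPM, where the other libraries held at most 0.128 and 3.62 CPM (both genes were chosen after their values were seen). A colon position score was computed as the mean log2 CPM of 5 distal Hox genes minus that of 6 proximal Hox genes. It ran from -3.02 to 5.52 in Con (5.52 in Con 1), 0.37 to 3.10 in DSS, -5.70 to -4.16 in UA+DSS and 4.12 to 5.06 in DSS+UA. Position and treatment cannot be told apart in UA+DSS against DSS, against Con or against DSS+UA, or in DSS+UA against DSS, since the scores of these groups did not overlap. In DSS and DSS+UA against Con the ranges overlapped only through Con 1, so the score only partly separates position from treatment there.

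Of the 39 receptors, 35 passed the filter. Hnf4a was the most abundant per length, at a mean of 134 CPM per kb of exon, followed by Esrra (47.7), Vdr (40.3), Nr1h4 (40.2) and Nr1h2 (28.1). Taken as CPM without length, 8 of the 10 most abundant receptors stayed among the top 10. The 4 that did not pass were at or near 0. Pgr (progesterone receptor) reached 0.481 CPM at most, Esrrb 0.706, Nr0b2 (SHP, a corepressor without a DNA-binding domain) 0.200 and Nr1i3 (CAR, a xenobiotic sensor) 0.601 CPM. Nr1i3 was highest in DSS 2 and DSS+UA 3, and 74.85% of its exon bases overlap Tomm40l on the opposite strand, so its counts are uncertain. Among those tested, Rxrg reached 0.5 CPM in 3 libraries, Nr2e3 in 5, Rarb in 7 and Esr2 in 8, and the other 31 in all 12. The 3 libraries of Rxrg were those of DSS, so it passed the filter only through the group where it was high and had to differ there; its calls are included in the counts and support nothing. The 5 libraries of Nr2e3 were those of UA+DSS with Con 2 and 3, so it too passed the filter only through UA+DSS, where it was high. Its calls in UA+DSS against DSS and against DSS+UA are included in the counts and support nothing. The heatmap of all tested receptors shows the groups side by side. The 8 receptors that passed in DSS against Con under every alternative lie, in GRCm38, at chr16:38248323-38294824 (Nr1i2), chr15:97854425-97910630 (Vdr), chr11:98740638-98769006 (Thra), chr14:17660261-18038090 (Thrb), chr13:78188973-78199757 (Nr2f1), chr8:76899442-77245012 (Nr3c2), chr4:48045153-48086447 (Nr4a3) and chr1:136842571-136960448 (Nr5a2).

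**Figure D1:**
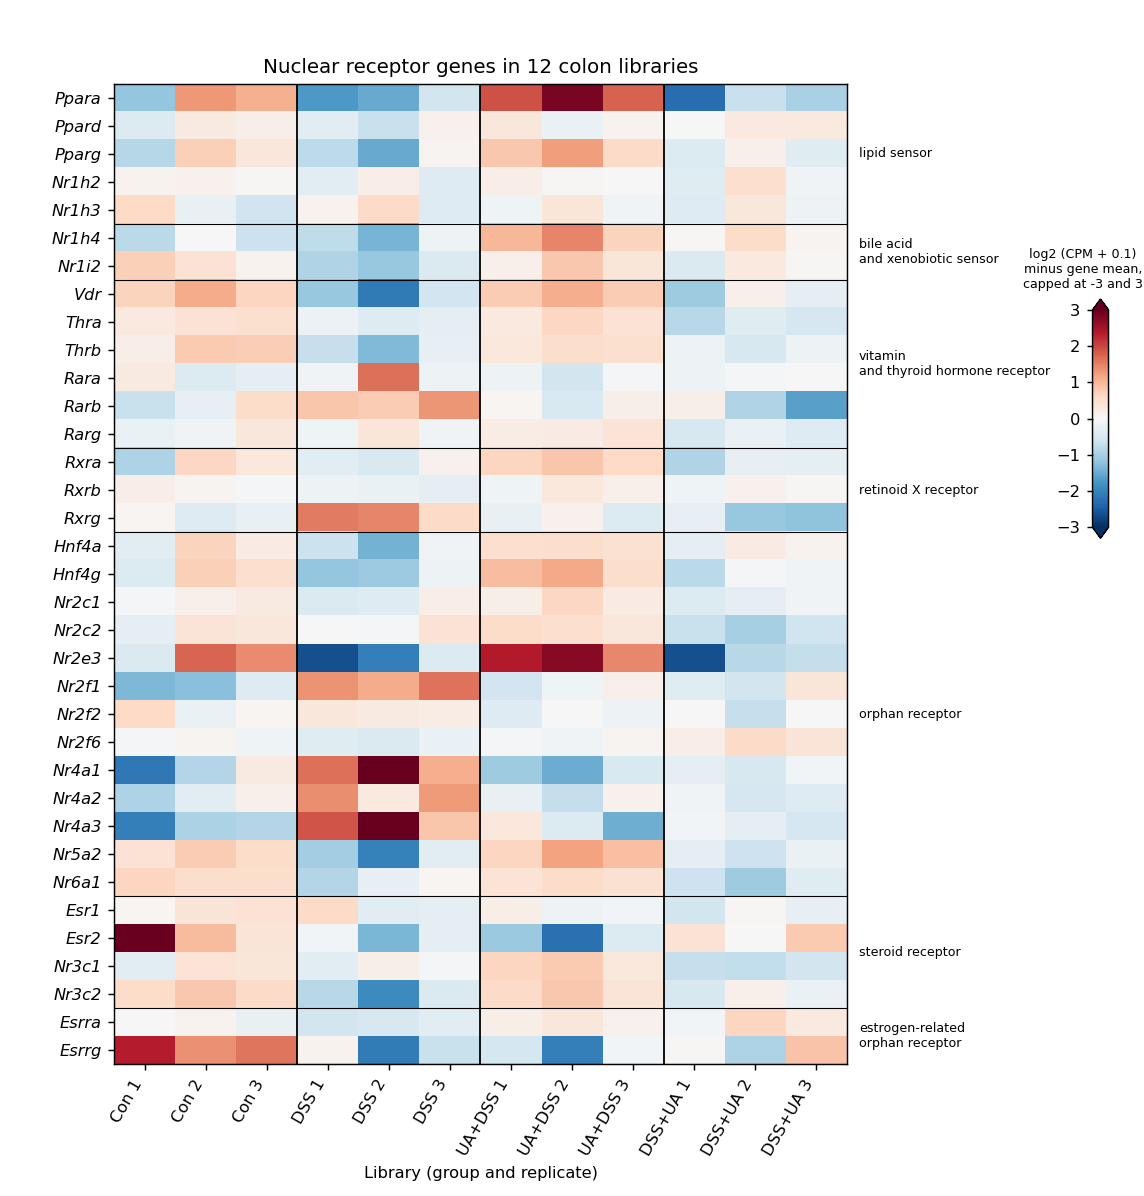
Level of each of the 35 tested nuclear receptors (rows, by class) in each of the 12 libraries (columns), as log2 (CPM + 0.1) minus the gene's mean over the libraries, with the colours capped at -3 and 3. Nr4a1, Nr4a3 and Nr2f1 are red in the 3 DSS libraries, and Vdr, Nr1i2, Nr3c2 and Nr5a2 are blue there.

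Against Con, DSS lowered 12 of the 39 receptors and raised 5. The lowered ones were Ppara, Nr1i2, Vdr, Thra, Thrb, Hnf4g, Nr2e3, Esr2, Esrrg, Nr3c2, Nr5a2 and Nr6a1, and the raised ones Rxrg, Nr2f1, Nr4a1, Nr4a2 and Nr4a3. Of all tested genes, 12.6% were lowered and 13.9% raised in this comparison (26.5% in all). The median log2 fold change was -0.30 over the tested receptors and -0.03 over all tested genes. Con and DSS libraries did not overlap for 12 lower and 6 higher receptors, where 20.1% and 21.2% of all tested genes did not overlap in these directions. These were bulk tissue libraries, so fewer cells of a type and less RNA per cell cannot be told apart. In the same comparison, the summed epithelial markers (8 genes) were at 8010 to 12459.5 CPM in Con and 4963 to 7694 CPM in DSS, with 2 of 8 lowered and a median log2 fold change of -0.69. The summed fibroblast markers (5 genes, 4 raised) were at 537 to 861 CPM in Con and 1713 to 3317 CPM in DSS. Leukocyte markers (5 genes, 5 raised) were at 42.6 to 98.5 CPM in Con and 257 to 991 CPM in DSS, and neutrophil markers (4 genes, 4 raised) at 0.998 to 1.98 CPM in Con and 526 to 15363.6 CPM in DSS, with the most in DSS 2. Endothelial markers (2 of 3 raised), smooth muscle markers (0 of 5 called) and enteric neuron and glia markers (0 of 5 called) had median log2 fold changes of 1.14, -1.06 and 1.06. The part of these cell types in the receptor changes was not tested.

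Against DSS, UA+DSS raised 13 receptors and lowered 5, where 8.21% and 10.5% of all tested genes were raised and lowered (18.7% in all). Those raised were Ppara, Pparg, Nr1h4, Nr1i2, Vdr, Thra, Thrb, Hnf4a, Hnf4g, Nr2e3, Esrra, Nr3c2 and Nr5a2, and those lowered Rxrg, Nr2f1, Nr4a1, Nr4a2 and Nr4a3. The median log2 fold change was 0.36 over the tested receptors and -0.02 over all tested genes. With the position score as a covariate none of the 18 passed (edgeR adjusted p 0.113 to 0.746), and without UA+DSS 2 none passed either (0.0533 to 0.140). This comparison and DSS against Con share the DSS libraries, so their fold changes are not independent. Epithelial markers summed to 9760 to 11177 CPM in UA+DSS (2 of 8 raised against DSS) and fibroblast markers to 421 to 932 CPM (3 of 5 lowered). Leukocyte markers summed to 76.2 to 178 CPM (4 of 5 lowered) and neutrophil markers to 11.03 to 56.5 CPM (4 of 4 lowered). Endothelial markers (2 of 3 lowered), smooth muscle markers (0 of 5 called) and enteric neuron and glia markers (0 of 5 called) had median log2 fold changes of -1.31, 0.90 and -0.16. The part of these cell types in the receptor changes was not tested.

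**Figure D2:**
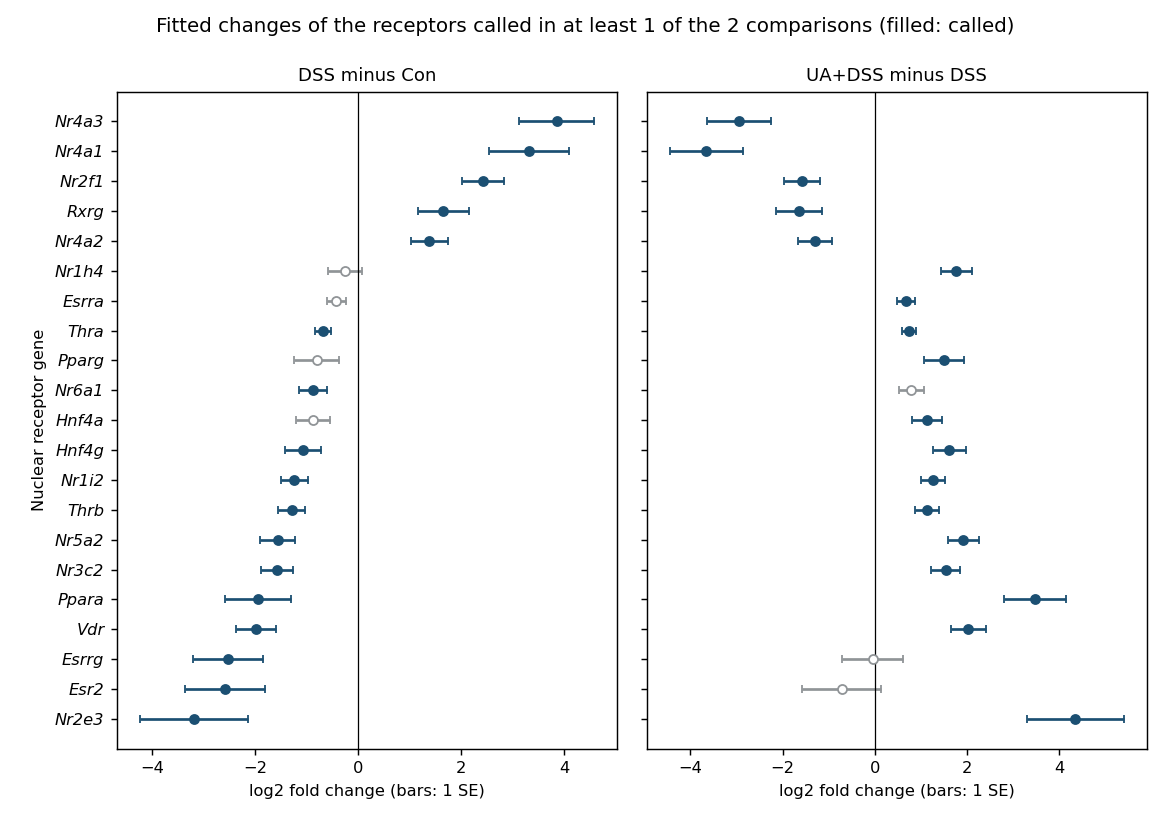
Fitted log2 fold change with its standard error for the 21 receptors called in DSS against Con (left) or UA+DSS against DSS (right); filled points passed the test. In DSS against Con they run from -3.19 for Nr2e3 to 3.85 for Nr4a3, and both panels share the 3 DSS libraries.

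Against DSS, DSS+UA raised 2 receptors (Nr2f6 and Esrra) and lowered 6 (Rxrg, Nr2c2, Nr2f1, Nr4a1, Nr4a2 and Nr4a3), where 2.54% and 5.0% of all tested genes were raised and lowered (7.54% in all). None of the 8 passed with the position score as a covariate (edgeR adjusted p 0.0544 to 0.112). The log2 fold changes were 0.73 without and 0.74 with the score for Nr2f6, and 0.77 and 0.79 for Esrra. They were -2.49 and -2.67 for Rxrg, -1.55 and -1.40 for Nr2f1 and -1.39 and -1.21 for Nr4a2. Those of Nr2c2, Nr4a3 and Nr4a1 went from -0.90 to -0.64, -2.88 to -2.43 and -2.98 to -2.38. The scores of DSS+UA and DSS did not overlap, so these values cannot separate position from treatment. None passed either in a fit of these 6 libraries alone (edgeR adjusted p 0.0606 to 0.110), without DSS+UA 2 (0.0805 to 0.146) or without DSS+UA 3 (0.0929 to 0.143). In this comparison endothelial markers were lowered in 3 of 3 genes (median log2 fold change -1.62), fibroblast markers in 2 of 5 (-1.65) and leukocyte markers in 1 of 5 (-1.69), epithelial markers were raised in 2 of 8 (0.68), and no smooth muscle, neutrophil or enteric neuron and glia marker was called (neutrophil median -3.67). Their part in the receptor changes was not tested.

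Against Con, DSS+UA lowered 5 receptors (Thra, Thrb, Nr2c2, Nr3c1 and Nr6a1) and raised none, where 8.95% of all tested genes were lowered and 9.13% raised (18.1% in all). Smooth muscle markers were lowered in 3 of 5 genes (median log2 fold change -1.94), neutrophil markers were raised in 4 of 4 (9.55) and endothelial markers lowered in 1 of 3 (-0.72), and their part in the receptor changes was not tested. UA+DSS against Con called none of the 39 receptors by edgeR, where 0.00566% of all tested genes were called. The libraries of these groups did not overlap for 3 higher and 2 lower receptors, where 9.62% and 11% of all tested genes did so. In that comparison 4 of the 35 tested receptors had an unadjusted edgeR p under 0.05, as did 2132 of all 17658 tested genes. DESeq2 called 3 receptors and limma-voom 0, and the shares of all genes that these tools called are not given here. These counts are not a result about the receptors. UA+DSS against DSS+UA raised 10 receptors and lowered none, where 7.54% and 9.23% of all tested genes were raised and lowered (16.8% in all). It compares early UA for 7 days with late UA for 4 days, so timing and length of dosing cannot be told apart. Libraries did not overlap for 17 higher and 2 lower receptors, against 22.7% and 22.5% of all tested genes. Smooth muscle markers were raised in 3 of 5 genes here (median log2 fold change 1.77), and neutrophil markers lowered in 1 of 4 (-3.95), and their part was not tested. With the position score as a covariate none of these 10 receptors passed (edgeR adjusted p 0.312 to 0.867). Their log2 fold changes with the score were 0.48 for Ppara, 0.80 for Nr2e3, 0.34 for Nr3c1, 0.41 for Nr2c2 and 0.35 for Rarg. They were 0.83 for Nr5a2, -0.45 for Rxra and -0.25 for Hnf4g. Those of Thra were 1.02 without and 0.87 with the score, and those of Nr6a1 1.14 and 1.05. The scores of these groups did not overlap either, so the values cannot separate position from treatment.

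Among the lipid sensors, the level of Ppara (PPARα, a fatty acid sensor that drives fatty acid oxidation and ketone body genes) varied most. It was at 2.33, 13.1 and 11.2 CPM in Con, 1.54, 1.80 and 3.59 in DSS, 20.3, 38.5 and 18.2 in UA+DSS and 1.00, 3.28 and 2.66 in DSS+UA. All UA+DSS libraries lay above those of the other groups, and Con 1 lay with the DSS libraries. Ppara was 3.84-fold lower in DSS than in Con (log2 fold change -1.94 ± 0.64 SE, edgeR adjusted p = 0.0451, range 0.00972 to 0.149), 11.1-fold higher in UA+DSS than in DSS (log2 fold change 3.47 ± 0.67 SE, edgeR adjusted p = 0.0121, range 1.51e-06 to 0.205) and 11.1-fold higher in UA+DSS than in DSS+UA (log2 fold change 3.47 ± 0.67 SE, edgeR adjusted p = 0.0105, range 1.45e-06 to 0.835). The log2 fold change in DSS against Con was, with the position score, -1.24 ± 0.42 SE (edgeR adjusted p = 0.0483). That of UA+DSS against DSS+UA was then 0.48 ± 0.80 SE and that of UA+DSS against DSS 1.48 ± 0.61 SE. Within Con, where no mouse received DSS or UA, Ppara was 5.23-fold lower in Con 1 than in the mean of Con 2 and 3.

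Pparg (PPARγ, the adipocyte and colonocyte member of the family) was at 37.3, 111 and 86.0 CPM in Con, 38.97, 23.6 and 71.4 in DSS, 118, 160.2 and 101 in UA+DSS and 50.3, 74.4 and 52.7 in DSS+UA. The lowest library was DSS 2 and the highest UA+DSS 2. Pparg was 2.83-fold higher in UA+DSS than in DSS (log2 fold change 1.5 ± 0.44 SE, edgeR adjusted p = 0.0392, range 0.00733 to 0.746), and 0.28 ± 0.46 SE with the position score. Within Con it was 2.64-fold lower in Con 1 than in the mean of the other Con libraries. Nr1h2 (LXRβ, an oxysterol sensor) was the most abundant lipid sensor per length and was called in no comparison, at 99.6, 102 and 94.8 CPM in Con, 73.3, 107 and 71.1 in DSS, 106, 95.8 and 92.7 in UA+DSS and 72.6, 131 and 85.9 in DSS+UA. Its libraries overlapped between all groups. Ppard (PPARδ) at 89.5 to 181 CPM and Nr1h3 (LXRα) at 10.5 to 24.3 CPM were also called in no comparison.

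Nr1i2 and Nr1h4 are the receptors for xenobiotics and bile acids. Nr1i2 (PXR, which induces drug-metabolizing enzymes and transporters) was at 103, 84.6 and 66.8 CPM in Con, 33.1, 28.2 and 46.4 in DSS, 69.2, 110.1 and 80.3 in UA+DSS and 46.1, 76.5 and 63.8 in DSS+UA. Every DSS library was below every Con and UA+DSS library. Nr1i2 was 2.36-fold lower in DSS than in Con (log2 fold change -1.24 ± 0.26 SE, edgeR adjusted p = 0.00796, range 0.000441 to 0.0387) and 2.41-fold higher in UA+DSS than in DSS (log2 fold change 1.27 ± 0.26 SE, edgeR adjusted p = 0.0137, range 0.000427 to 0.115). Nr1h4 (FXR, the bile acid sensor) was at 45.5, 79.9 and 50.6 CPM in Con, 46.6, 30.3 and 71.3 in DSS, 159, 220.0 and 126 in UA+DSS and 81.2, 116 and 84.9 in DSS+UA. UA+DSS held the 3 highest libraries, and Con and DSS overlapped. Nr1h4 was 3.41-fold higher in UA+DSS than in DSS (log2 fold change 1.77 ± 0.34 SE, edgeR adjusted p = 0.0113, range 3.63e-05 to 0.182), and 1.17 ± 0.44 SE with the position score. Against Con its values gave no call in UA+DSS (log2 fold change 1.52 ± 0.33 SE, edgeR adjusted p = 0.172, range 0.00397 to 0.9997). Every UA+DSS library still lay above every Con library, and 22 of 23 alternatives did not pass. Nor was there a call in DSS against Con (log2 fold change -0.25 ± 0.33 SE, edgeR adjusted p = 0.596).

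Vdr (the vitamin D receptor, which in the colon also binds lithocholic acid) was lowered in DSS, as were both thyroid hormone receptors. It was at 297, 407 and 292 CPM in Con, 85.0, 42.6 and 125 in DSS, 317, 399 and 317 in UA+DSS and 88.4, 207 and 153 in DSS+UA. The Con and UA+DSS libraries lay between 292 and 407 CPM, above all libraries of DSS and DSS+UA. Vdr was 3.95-fold lower in DSS than in Con (log2 fold change -1.98 ± 0.39 SE, edgeR adjusted p = 0.00575, range 1.42e-05 to 0.0308) and 4.09-fold higher in UA+DSS than in DSS (log2 fold change 2.03 ± 0.39 SE, edgeR adjusted p = 0.0113, range 1.46e-05 to 0.144). In DSS+UA against Con it did not pass (log2 fold change -1.15 ± 0.38 SE, edgeR adjusted p = 0.0547).

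The 2 thyroid hormone receptors, Thra and Thrb, bind triiodothyronine, and Thra is the form that supports crypt cell proliferation. Thra was at 57.9, 64.1 and 66.7 CPM in Con, 42.0, 36.5 and 39.1 in DSS, 58.4, 73.5 and 64.0 in UA+DSS and 26.5, 37.0 and 33.4 in DSS+UA. No DSS or DSS+UA library reached the lowest Con or UA+DSS library. Thra was 1.61-fold lower in DSS than in Con (log2 fold change -0.68 ± 0.15 SE, edgeR adjusted p = 0.00937, range 0.00142 to 0.0440), 1.95-fold lower in DSS+UA than in Con (log2 fold change -0.96 ± 0.15 SE, edgeR adjusted p = 0.00528, range 4.84e-06 to 0.0259), 1.67-fold higher in UA+DSS than in DSS (log2 fold change 0.74 ± 0.15 SE, edgeR adjusted p = 0.0136, range 0.000664 to 0.169) and 2.02-fold higher in UA+DSS than in DSS+UA (log2 fold change 1.02 ± 0.15 SE, edgeR adjusted p = 0.00644, range 1.27e-06 to 0.312). Of its exon bases, 5.7% overlap Nr1d1 on the opposite strand. Thrb was at 20.8, 31.4 and 30.0 CPM in Con, 11.2, 7.11 and 15.3 in DSS, 22.4, 25.9 and 25.3 in UA+DSS and 16.1, 12.99 and 16.2 in DSS+UA. It was lower in every DSS and DSS+UA library than in every Con and UA+DSS library. Thrb was 2.44-fold lower in DSS than in Con (log2 fold change -1.29 ± 0.26 SE, edgeR adjusted p = 0.00670, range 0.000131 to 0.0448), 2.19-fold higher in UA+DSS than in DSS (log2 fold change 1.13 ± 0.26 SE, edgeR adjusted p = 0.0173, range 0.00132 to 0.289) and 1.81-fold lower in DSS+UA than in Con (log2 fold change -0.86 ± 0.26 SE, edgeR adjusted p = 0.0420, range 0.0150 to 0.237).

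Of the 3 retinoic acid receptors, 1 was called in any comparison. Rarg (the γ form) was at 17.6, 18.7 and 25.6 CPM in Con, 18.4, 26.1 and 18.8 in DSS, 23.4, 23.8 and 26.9 in UA+DSS and 14.3, 17.6 and 15.5 in DSS+UA. The DSS+UA libraries lay below those of UA+DSS, and Con and DSS overlapped UA+DSS. Rarg was 1.56-fold higher in UA+DSS than in DSS+UA (log2 fold change 0.65 ± 0.20 SE, edgeR adjusted p = 0.0451, range 0.0218 to 0.725). Rara (the α form) was called in no comparison, and was at 81.5 CPM in DSS 2 against 17.6 to 30.8 CPM in the others. DSS 2 also held the most neutrophil and leukocyte marker RNA and transcripts typical of small intestine. Their part in this 1 value was not tested. Rarb (the β form) stayed between 0.111 and 1.53 CPM without a call, and 38.37% of its exon bases overlap other genes, mostly Top2b.

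**Figure D3:**
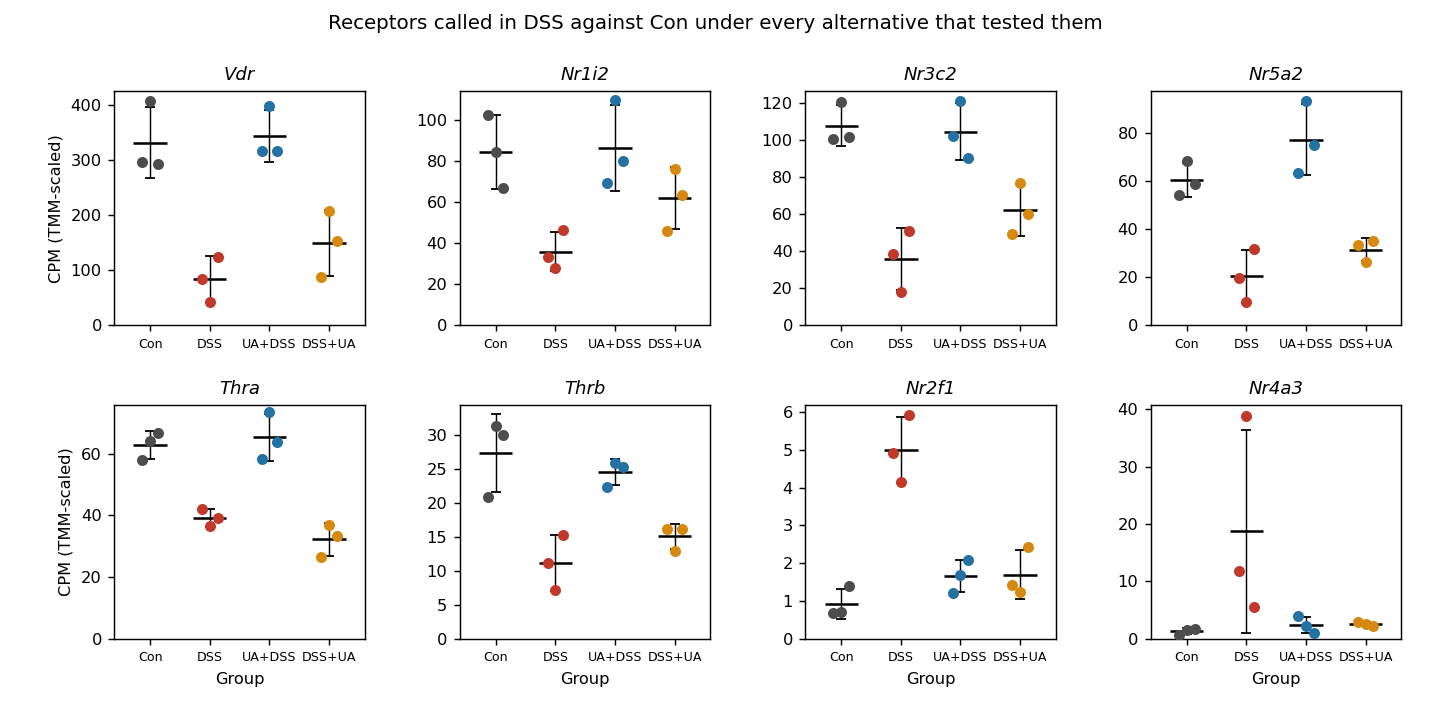
CPM in each library (points), mean (bar) and SD of 3 libraries (whiskers) for the 8 receptors that passed in DSS against Con under every alternative that tested them. Vdr, Nr1i2, Nr3c2, Nr5a2, Thra and Thrb were lower and Nr2f1 and Nr4a3 higher in every DSS library than in every Con library.

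Retinoid X receptors are the common partner of the sensors above. Rxra, the most abundant of them per length, was at 47.0, 138 and 111 CPM in Con, 72.4, 64.7 and 97.5 in DSS, 140.2, 159 and 135 in UA+DSS and 48.1, 75.7 and 73.1 in DSS+UA. UA+DSS libraries lay above those of DSS and DSS+UA, and Con 1 was the lowest of all 12. Rxra was 2.21-fold higher in UA+DSS than in DSS+UA (log2 fold change 1.14 ± 0.34 SE, edgeR adjusted p = 0.0402, range 0.00691 to 0.655), but the log2 fold change turned to -0.45 ± 0.40 SE with the position score (edgeR adjusted p = 0.655). Rxrb stayed within 48.8 to 73.2 CPM and was called in no comparison. Rxrg, the muscle and nerve form, was sparse at 0.414, 0.277 and 0.321 CPM in Con, 1.35, 1.25 and 0.634 in DSS, 0.321, 0.437 and 0.266 in UA+DSS and 0.316, 0.124 and 0.111 in DSS+UA. It was higher in each DSS library than in any other library, from 12 to 28 counts there against 2 to 8 counts elsewhere. Its fitted log2 fold changes, a description since it passed the filter through the DSS libraries alone, were 1.66 ± 0.49 SE in DSS against Con, -1.65 ± 0.49 SE in UA+DSS against DSS and -2.49 ± 0.52 SE in DSS+UA against DSS.

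HNF4 receptors carry the enterocyte program. Hnf4a alone made 27.7% of the summed CPM of the 39 receptors, at 481, 957 and 717 CPM in Con, 386, 226 and 558 in DSS, 859, 873 and 831 in UA+DSS and 504, 716 and 652 in DSS+UA. DSS 2 held the lowest value and Con 2 the highest. Hnf4a was 2.19-fold higher in UA+DSS than in DSS (log2 fold change 1.13 ± 0.33 SE, edgeR adjusted p = 0.0362, range 0.00800 to 0.528), and 0.48 ± 0.42 SE with the position score, while DSS against Con did not pass (log2 fold change -0.88 ± 0.33 SE, edgeR adjusted p = 0.0667). Hnf4g, its paralog, was at 15.9, 35.1 and 30.1 CPM in Con, 9.43, 10.02 and 19.1 in DSS, 40.2, 47.3 and 30.6 in UA+DSS and 12.1, 20.4 and 19.8 in DSS+UA. UA+DSS libraries lay above DSS and DSS+UA, and Con 1 lay among the DSS libraries. Hnf4g was 2.10-fold lower in DSS than in Con (log2 fold change -1.07 ± 0.36 SE, edgeR adjusted p = 0.0461, range 0.0151 to 0.154), 3.06-fold higher in UA+DSS than in DSS (log2 fold change 1.61 ± 0.36 SE, edgeR adjusted p = 0.0160, range 0.000534 to 0.337) and 2.26-fold higher in UA+DSS than in DSS+UA (log2 fold change 1.18 ± 0.36 SE, edgeR adjusted p = 0.0443, range 0.0153 to 0.867). With the position score the last turned to -0.25 ± 0.51 SE (edgeR adjusted p = 0.867), and that against DSS was 0.67 ± 0.39 SE.

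The 3 NR4A receptors are immediate early genes, switched on within a short time of a stimulus and known to be active without a ligand. The 250 bases before the RefSeq start of each (GRCm38.p6) are shown because each of the 3 genes was called raised in DSS against Con. Each stretch holds 4 copies of TGACG on either strand. This is the core part of the cAMP response element, the site of CREB and ATF factors, and the motif was chosen with the NR4A values known. The copies are in capitals (as TGACG or its complement CGTCA), in Nr4a1 at chr15:101266596-101266845 (plus strand), Nr4a2 at chr2:57124004-57124253 (minus strand) and Nr4a3 at chr4:48045055-48045152 (plus strand), each printed 5′ to 3′ on the gene's strand. For Nr4a3 only the 98 bases before the GENCODE first exon are printed, which hold 3 of its 4 copies.
Nr4a1: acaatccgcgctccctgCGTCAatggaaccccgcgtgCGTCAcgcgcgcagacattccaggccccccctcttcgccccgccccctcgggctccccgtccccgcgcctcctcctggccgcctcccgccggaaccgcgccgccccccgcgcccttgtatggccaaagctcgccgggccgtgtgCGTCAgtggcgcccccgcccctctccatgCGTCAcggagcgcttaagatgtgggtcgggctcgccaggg
Nr4a2: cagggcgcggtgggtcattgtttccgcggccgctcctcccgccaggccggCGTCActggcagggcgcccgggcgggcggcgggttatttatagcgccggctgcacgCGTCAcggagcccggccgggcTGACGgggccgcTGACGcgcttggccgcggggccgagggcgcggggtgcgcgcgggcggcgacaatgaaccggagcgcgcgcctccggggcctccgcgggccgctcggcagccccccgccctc
Nr4a3: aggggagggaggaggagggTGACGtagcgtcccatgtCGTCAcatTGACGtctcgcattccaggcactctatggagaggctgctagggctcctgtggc
The copies begin 40 to 233 bases before the start in Nr4a1, 111 to 200 in Nr4a2 and 147 to 231 in Nr4a3. Of 32851 promoters of this length, 17.8% hold at least 1 copy and 0.137% at least 4, and of the 36 members matched to a promoter, 12 hold at least 1 and these 3 at least 4. The full palindrome TGACGTCA stands in 1.55% of the promoters and in none of the 36. The hexamer AGGTCA, to which many nuclear receptors bind, stands in 14% of all promoters and in 8 of the 36 (Nr1h4, Nr5a2, Nr6a1, Pparg, Rarg, Rxra, Rxrg and Thrb). A match describes the letters only. The longest GENCODE model of Nr4a1 begins further upstream, so that its printed stretch is also intronic there.

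Nr4a1 (NUR77) was at 5.43, 13.1 and 29.5 CPM in Con, 76.2, 353 and 51.5 in DSS, 11.5, 8.62 and 17.8 in UA+DSS and 20.3, 17.4 and 23.1 in DSS+UA. All DSS libraries lay above all others, and DSS 2 was far above the other DSS libraries. Nr4a1 was 10.003-fold higher in DSS than in Con (log2 fold change 3.32 ± 0.78 SE, edgeR adjusted p = 0.0129, range 1.36e-05 to 0.0644), 12.6-fold lower in UA+DSS than in DSS (log2 fold change -3.66 ± 0.79 SE, edgeR adjusted p = 0.0158, range 3.37e-06 to 0.113) and 7.91-fold lower in DSS+UA than in DSS (log2 fold change -2.98 ± 0.77 SE, edgeR adjusted p = 0.0449, range 0.000331 to 0.260). Without DSS 2 these log2 fold changes were 2.0, -2.34 and -1.64, with edgeR adjusted p of 0.0323, 0.0326 and 0.133.

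Nr4a3 (NOR1) was at 0.672, 1.55 and 1.66 CPM in Con, 11.8, 38.9 and 5.5995 in DSS, 3.91, 2.31 and 1.06 in UA+DSS and 2.95, 2.54 and 2.16 in DSS+UA. Here too every DSS library exceeded every other, with DSS 2 the highest. Nr4a3 was 14.5-fold higher in DSS than in Con (log2 fold change 3.85 ± 0.73 SE, edgeR adjusted p = 0.00519, range 1.60e-07 to 0.0356), 7.74-fold lower in UA+DSS than in DSS (log2 fold change -2.95 ± 0.69 SE, edgeR adjusted p = 0.0185, range 0.000123 to 0.122) and 7.34-fold lower in DSS+UA than in DSS (log2 fold change -2.88 ± 0.69 SE, edgeR adjusted p = 0.0363, range 0.000326 to 0.267). Without DSS 2 they were 2.75, -1.85 and -1.76 on the log2 scale, with edgeR adjusted p of 0.00921, 0.0539 and 0.109. Nr4a2 (NURR1) was at 3.41, 5.10 and 7.22 CPM in Con, 17.2, 7.97 and 15.9 in DSS, 5.58, 3.94 and 7.12 in UA+DSS and 6.11, 4.58 and 4.93 in DSS+UA. Its lowest DSS library was DSS 2, at 7.97 CPM beside 7.22 CPM in Con 3 and 7.12 CPM in UA+DSS 3. Nr4a2 was 2.61-fold higher in DSS than in Con (log2 fold change 1.38 ± 0.37 SE, edgeR adjusted p = 0.0191, range 0.00180 to 0.0666), 2.46-fold lower in UA+DSS than in DSS (log2 fold change -1.30 ± 0.37 SE, edgeR adjusted p = 0.0327, range 0.00496 to 0.150) and 2.63-fold lower in DSS+UA than in DSS (log2 fold change -1.39 ± 0.37 SE, edgeR adjusted p = 0.0451, range 0.00398 to 0.144).

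Of the 6 other immediate early genes listed, DSS raised Egr1 and Junb against Con, and UA+DSS lowered Egr1, Fosb and Junb against DSS. Among all tested genes 13.9% and 10.5% were called in these directions. Egr1, a zinc finger factor, was at 17.4, 16.4 and 25.6 CPM in Con, 88.1, 105 and 54.3 in DSS, 17.5, 34.9 and 31.5 in UA+DSS and 19.7, 20.2 and 32.2 in DSS+UA. All DSS libraries were above all others. It was higher in DSS than in Con (log2 fold change 2.06 ± 0.33 SE, edgeR adjusted p = 0.00311) and lower in UA+DSS than in DSS (log2 fold change -1.56 ± 0.33 SE, edgeR adjusted p = 0.0141). Fos, chosen after its values were seen, was called in neither comparison and was at 98.8 to 136 CPM in DSS and 73.6 to 126 CPM in Con.

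Nr2f1 (COUP-TFI, a factor of mesenchyme and nerve) was at 0.672, 0.721 and 1.39 CPM in Con, 4.91, 4.16 and 5.92 in DSS, 1.22, 1.69 and 2.07 in UA+DSS and 1.42, 1.24 and 2.44 in DSS+UA. Each DSS library was above all 9 others. Nr2f1 was 5.35-fold higher in DSS than in Con (log2 fold change 2.42 ± 0.41 SE, edgeR adjusted p = 0.00346, range 1.92e-07 to 0.0261), 2.99-fold lower in UA+DSS than in DSS (log2 fold change -1.58 ± 0.39 SE, edgeR adjusted p = 0.0215, range 0.000933 to 0.151) and 2.93-fold lower in DSS+UA than in DSS (log2 fold change -1.55 ± 0.39 SE, edgeR adjusted p = 0.0413, range 0.00193 to 0.135). Its paralog Nr2f2 (COUP-TFII) stayed between 14.2 and 34.4 CPM and was called in no comparison. Fibroblast, leukocyte, neutrophil and endothelial markers were higher in DSS than in Con, as given above. Enteric neuron and glia markers also had a positive median, without a call. The part of any of these cell types in the change of Nr2f1 was not tested. Nr2f6, the third COUP-TF paralog, was at 59.4, 64.8 and 55.9 CPM in Con, 47.6, 45.2 and 53.2 in DSS, 59.3, 57.1 and 65.3 in UA+DSS and 70.0, 92.0 and 79.5 in DSS+UA. DSS+UA held the 3 highest libraries. Nr2f6 was 1.65-fold higher in DSS+UA than in DSS (log2 fold change 0.73 ± 0.14 SE, edgeR adjusted p = 0.0202, range 0.000295 to 0.154), and 54.37% of its exon bases overlap Ocel1 on the opposite strand, so its counts are uncertain.

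Nr5a2 (LRH-1, which supports crypt renewal and intestinal glucocorticoid synthesis) was at 54.4, 68.6 and 58.8 CPM in Con, 19.6, 9.87 and 32.0 in DSS, 63.6, 93.4 and 75.4 in UA+DSS and 33.3, 26.3 and 35.0 in DSS+UA. Con and UA+DSS libraries lay between 54.4 and 93.4 CPM, and those of DSS and DSS+UA between 9.87 and 35.0 CPM. Nr5a2 was 2.96-fold lower in DSS than in Con (log2 fold change -1.57 ± 0.34 SE, edgeR adjusted p = 0.00831, range 0.000224 to 0.0479), 3.78-fold higher in UA+DSS than in DSS (log2 fold change 1.92 ± 0.34 SE, edgeR adjusted p = 0.00998, range 7.01e-06 to 0.135) and 2.45-fold higher in UA+DSS than in DSS+UA (log2 fold change 1.30 ± 0.33 SE, edgeR adjusted p = 0.0257, range 0.00359 to 0.605). Nr6a1 (GCNF, a repressor known from germ cells) was at 10.03, 9.21 and 9.25 CPM in Con, 3.46, 5.41 and 6.66 in DSS, 8.60, 9.37 and 8.83 in UA+DSS and 4.16, 3.03 and 4.93 in DSS+UA. Its Con and UA+DSS values lay between 8.60 and 10.03 CPM, above the rest. Nr6a1 was 1.83-fold lower in DSS than in Con (log2 fold change -0.88 ± 0.27 SE, edgeR adjusted p = 0.0347, range 0.0103 to 0.114), 2.35-fold lower in DSS+UA than in Con (log2 fold change -1.23 ± 0.27 SE, edgeR adjusted p = 0.0143, range 0.000317 to 0.0429) and 2.21-fold higher in UA+DSS than in DSS+UA (log2 fold change 1.14 ± 0.27 SE, edgeR adjusted p = 0.0199, range 0.000972 to 0.422).

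Nr2e3, known from photoreceptors, was sparse, at 0.362, 1.997 and 1.55 CPM in Con, 0, 0.0501 and 0.370 in DSS, 3.14, 4.00 and 1.60 in UA+DSS and 0, 0.247 and 0.277 in DSS+UA. It had 0 counts in DSS 1 and DSS+UA 1, which allows up to 0.144 and 0.158 CPM (3 counts, counting error only), and UA+DSS held the highest library. Its log2 fold change was -3.19 ± 1.05 SE in DSS against Con (edgeR adjusted p = 0.0443, range 0.00851 to 0.135). It was 4.35 ± 1.06 SE in UA+DSS against DSS and 4.03 ± 1.04 SE in UA+DSS against DSS+UA. These are a description, since Nr2e3 passed the filter only through UA+DSS. Con 1 was again with the DSS libraries, 4.90-fold below the mean of Con 2 and 3. Nr2c2 (TR4) was at 21.6, 34.3 and 33.1 CPM in Con, 26.5, 25.6 and 35.7 in DSS, 38.6, 37.3 and 33.1 in UA+DSS and 16.6, 13.1 and 17.4 in DSS+UA. DSS+UA held the 3 lowest libraries. Nr2c2 was 1.86-fold lower in DSS+UA than in DSS (log2 fold change -0.90 ± 0.21 SE, edgeR adjusted p = 0.0336, range 0.00339 to 0.141), 1.89-fold lower than in Con (log2 fold change -0.92 ± 0.21 SE, edgeR adjusted p = 0.0159, range 0.00210 to 0.0949) and 2.31-fold lower than in UA+DSS (with UA+DSS as the first group, log2 fold change 1.21 ± 0.21 SE, edgeR adjusted p = 0.00796, range 2.60e-05 to 0.580). Of its exon bases 31.18% overlap other genes, mostly Mrps25. Nr2c1 (TR2) stayed between 8.76 and 18.4 CPM and was called in no comparison.

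Of the steroid receptors, Nr3c2 (the mineralocorticoid receptor, which sets sodium uptake in the distal colon) was at 101, 121 and 102 CPM in Con, 38.8, 18.1 and 51.2 in DSS, 103, 121 and 90.3 in UA+DSS and 49.3, 77.1 and 60.4 in DSS+UA. The Con and UA+DSS libraries lay above all others. Nr3c2 was 2.99-fold lower in DSS than in Con (log2 fold change -1.58 ± 0.31 SE, edgeR adjusted p = 0.00608, range 6.30e-05 to 0.0376) and 2.91-fold higher in UA+DSS than in DSS (log2 fold change 1.54 ± 0.31 SE, edgeR adjusted p = 0.0131, range 0.000167 to 0.163). Nr3c1 (the glucocorticoid receptor) was at 83.4, 140.3 and 134 CPM in Con, 82.4, 118 and 103 in DSS, 163, 181 and 132 in UA+DSS and 64.8, 62.9 and 71.4 in DSS+UA. DSS+UA held the 3 lowest libraries, and DSS overlapped Con. Nr3c1 was 1.80-fold lower in DSS+UA than in Con (log2 fold change -0.85 ± 0.22 SE, edgeR adjusted p = 0.0237, range 0.00660 to 0.159) and 2.39-fold higher in UA+DSS than in DSS+UA (log2 fold change 1.26 ± 0.22 SE, edgeR adjusted p = 0.00779, range 2.04e-05 to 0.633).

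Esr2 (estrogen receptor β, the epithelial form in the colon) was at 5.90, 1.39 and 0.909 CPM in Con, 0.625, 0.200 and 0.528 in DSS, 0.257, 0.0625 and 0.479 in UA+DSS and 0.948, 0.680 and 1.22 in DSS+UA. Con 1 held by far the most, 5.14-fold the mean of Con 2 and 3, and DSS lay below all Con libraries. Esr2 was 5.98-fold lower in DSS than in Con (log2 fold change -2.58 ± 0.77 SE, edgeR adjusted p = 0.0314, range 0.00692 to 0.161), and without Con 1 the log2 fold change was -1.33 (edgeR adjusted p = 0.161). Esr1 (estrogen receptor α) stayed between 2.58 and 5.72 CPM and was called in no comparison.

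Esrra (ERRα, a regulator of mitochondrial genes that works with PGC-1 coactivators) was at 202, 218 and 175 CPM in Con, 138, 145 and 161 in DSS, 231, 256 and 224 in UA+DSS and 193, 318 and 248 in DSS+UA. All DSS libraries were below all libraries of the other groups. Esrra was 1.60-fold higher in UA+DSS than in DSS (log2 fold change 0.68 ± 0.19 SE, edgeR adjusted p = 0.0311, range 0.00993 to 0.224) and 1.71-fold higher in DSS+UA than in DSS (log2 fold change 0.77 ± 0.19 SE, edgeR adjusted p = 0.0374, range 0.00368 to 0.214), while DSS against Con did not pass (log2 fold change -0.42 ± 0.19 SE, edgeR adjusted p = 0.114). Esrrg (ERRγ) was at 15.3, 7.71 and 9.04 CPM in Con, 3.13, 0.601 and 1.80 in DSS, 1.99, 0.625 and 2.71 in UA+DSS and 2.95, 1.48 and 5.32 in DSS+UA. The 3 Con libraries were the highest of the 12. Esrrg was 5.78-fold lower in DSS than in Con (log2 fold change -2.53 ± 0.67 SE, edgeR adjusted p = 0.0197, range 0.000806 to 0.0546), and without DSS 1 the log2 fold change was -3.16. In UA+DSS against DSS it did not pass (log2 fold change -0.05 ± 0.66 SE, edgeR adjusted p = 0.967), and against Con it did not pass there (log2 fold change -2.58 ± 0.68 SE, edgeR adjusted p = 0.241).

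The position score moved with many of these values, as the plot of the score and of the UA+DSS comparison shows. In UA+DSS against DSS the log2 fold change kept its sign with the score for all 18 called receptors, but shrank for Pparg, Hnf4a, Hnf4g, Ppara, Nr2e3 and Nr1h4 by over 1.5-fold in linear terms and grew in size for Nr4a1 (-4.92 ± 1.28 SE) and Nr4a3 (-3.99 ± 1.14 SE). That of Nr1i2 was 1.44 ± 0.39 SE with the score (1.27 without), that of Vdr 1.74 ± 0.56 SE (2.03), that of Nr3c2 1.34 ± 0.47 SE (1.54) and that of Nr5a2 1.60 ± 0.49 SE (1.92). In DSS against Con the score ranges overlapped only because Con 1 (5.52) lay above all DSS scores. Con 2 and 3 (-3.02 and -1.83) lay below all DSS scores. With the score 5 receptors were raised and 11 lowered in this comparison. Of the 17 calls without it only Nr2e3 was lost (log2 fold change -2.52, edgeR adjusted p = 0.0640). The log2 fold change of Ppara went from -1.94 to -1.24.

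**Figure D4:**
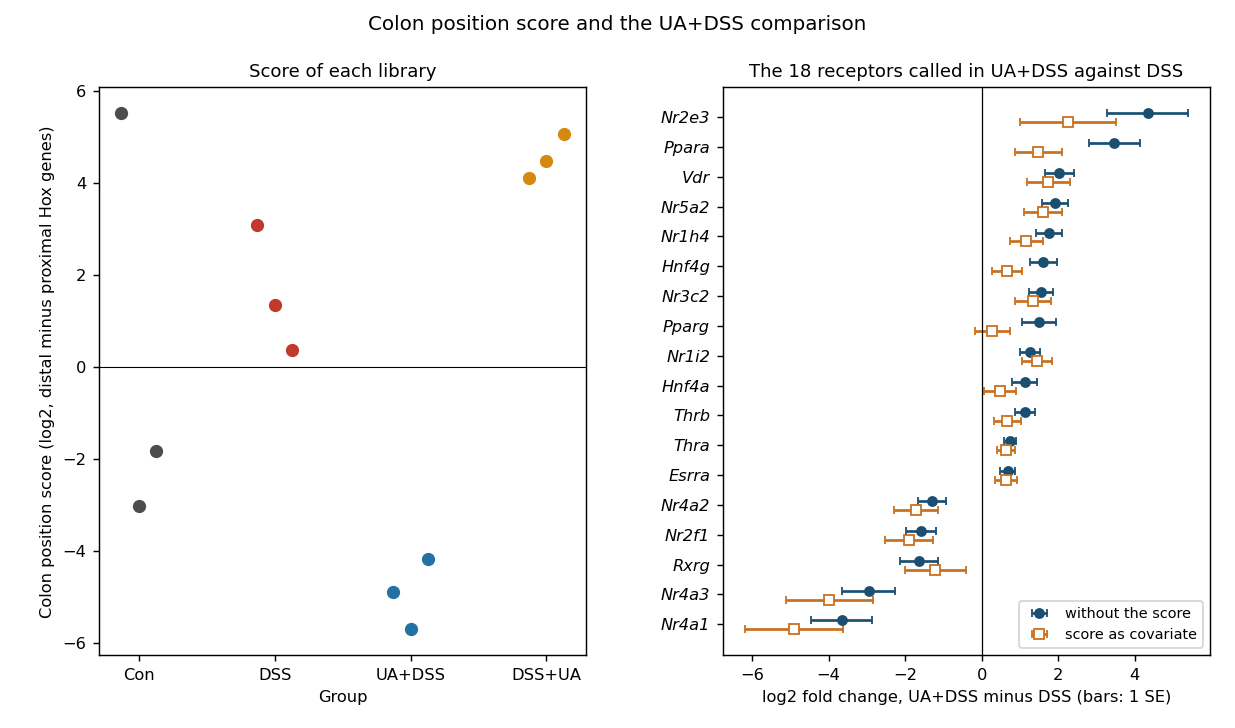
Left, colon position score of each library (log2 scale, higher is more distal by Hox genes) by group; right, log2 fold change of UA+DSS against DSS with 1 SE for the 18 called receptors, without (circles) and with (squares) the score as a covariate. The UA+DSS scores lie at -5.70 to -4.16, below all DSS scores, and the squares have wider errors than the circles for all but Ppara.

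In DSS against Con, the calls of Nr1i2, Vdr, Thra, Thrb, Nr2f1, Nr3c2, Nr4a3 and Nr5a2 passed under every alternative that tested them, and those of the other 9 rested on single libraries or settings. Esr2, Esrrg, Nr4a2 and Nr6a1 did not pass without Con 1 (edgeR adjusted p 0.0546 to 0.161), and Rxrg, Hnf4g, Ppara, Nr4a1, Nr4a2, Nr2e3 and Nr6a1 not without Con 2 (0.0540 to 0.154). Rxrg, Hnf4g, Ppara, Nr2e3 and Nr6a1 were lost without Con 3 (0.0589 to 0.101), the same with Esr2 without DSS 2 (0.0695 to 0.124), and those 6 with Nr4a2 without DSS 1 (0.0619 to 0.142). Without DSS 3 only Esr2 was lost (0.0614). The log2 fold change of Nr2e3 went to -5.37 without DSS 3 and -2.60 without DSS 1, and that of Nr4a1 to 4.11 without Con 3. Hnf4g, Ppara, Nr2e3 and in part Nr6a1 also missed the threshold, at 0.0509 to 0.0657, without any single library of the UA groups other than DSS+UA 1. These libraries are not in the comparison, but leaving 1 out raised the number of genes that passed the filter from 17658 to 18260 or more, so the tested set and the adjustment changed with the estimate of the spread. Without DSS 2 and DSS+UA 3 together, Rxrg, Hnf4g, Esr2, Ppara, Nr2e3 and Nr6a1 were lost (0.0818 to 0.149).

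In UA+DSS against DSS, Pparg, Rxrg, Hnf4a and Esrra were the calls lost most often. Without DSS 1 they were lost with Hnf4g, Nr4a2, Nr2e3 and Nr2f1 (edgeR adjusted p 0.0515 to 0.132), without DSS 2 with Nr4a3 and Nr2e3 (0.0539 to 0.111), without UA+DSS 1 with Nr4a2 and Nr2f1 (0.0659 to 0.108) and without UA+DSS 3 with Thrb, Nr4a2 and Nr4a3 (0.0507 to 0.137). Without DSS 3 only Nr4a2 was lost (0.0653). Removing Con 2, Con 3 or a DSS+UA library cost Pparg, Rxrg, Hnf4a or Esrra their call at 0.0515 to 0.0588. The log2 fold change of Nr2e3 was 3.76 without DSS 1 and 6.53 without DSS 3. Without both DSS 2 and DSS+UA 3, 12 of the 18 were lost (0.0503 to 0.133), and 6 passed, namely Nr1h4, Vdr, Nr2f1, Nr3c2, Nr4a2 and Nr5a2.

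In DSS+UA against DSS, the 8 calls were each lost without some library. Without DSS 1, Rxrg, Esrra, Nr4a2 and Nr2f1 did not pass (edgeR adjusted p 0.0507 to 0.0958), without DSS 2 all but Nr2f6 and Nr4a2 (0.0516 to 0.133), without DSS 3 Nr2c2, Nr4a2 and Nr2f1 (0.0637 to 0.0786) and without DSS+UA 1 Nr2c2, Nr2f1 and the NR4A genes (0.0560 to 0.0896), where the log2 fold change of Rxrg was -3.12. Without Con 2 or 1 of the UA+DSS libraries, 4 to 6 of the 8 did not pass (0.0502 to 0.0684). In DSS+UA against Con, Thra and Nr6a1 passed under every alternative, while Nr2c2, Thrb and Nr3c1 were lost without Con 2, Con 3 or DSS+UA 2 (0.0504 to 0.119), Thrb and Nr3c1 without DSS+UA 1 or DSS+UA 3 (0.0674 to 0.102), and Thrb without DSS 1 or a UA+DSS library (0.0580 to 0.0643). In UA+DSS against DSS+UA, Ppara, Thra, Nr2c2 and Nr3c1 passed without each library in turn. Rarg, Rxra and Hnf4g were lost without any 1 of the 6 libraries compared, joined in part of them by Nr5a2, Nr2e3 and Nr6a1 (0.0517 to 0.149), and 1 or 2 of the same 3 without Con 2, Con 3, DSS 1 or DSS 3 (0.0506 to 0.0591). Nr2e3 went to 3.42 on the log2 scale when DSS+UA 1 was left out.

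The counts of this list and those below stand beside the shares of all tested genes. In DSS against Con 13.9% were raised and 12.6% lowered, and in UA+DSS against DSS 8.21% and 10.5%. In DSS+UA against DSS the shares were 2.54% and 5.0%. The counts describe the listed genes and are not a result about a receptor. Of 15 listed enzymes that make or remove receptor ligands, of which 11 were tested, DSS raised 6 against Con (Hsd11b1, Rdh10, Aldh1a3, Ch25h, Cyp7b1 and Dio2) and lowered 1 (Dio1), with a median log2 fold change of 1.62. Hsd11b1, which regenerates active glucocorticoid, was at 5.48, 4.49 and 5.99 CPM in Con, 33.9, 43.2 and 28.9 in DSS, 10.8, 9.37 and 10.1 in UA+DSS and 12.5, 14.6 and 14.03 in DSS+UA. The DSS libraries were the 3 highest and the Con libraries the 3 lowest, with the UA groups between them. Hsd11b1 was higher in DSS than in Con (log2 fold change 2.73 ± 0.20 SE, edgeR adjusted p = 0.000236) and lower than DSS in UA+DSS (log2 fold change -1.81 ± 0.19 SE, edgeR adjusted p = 0.00378) and DSS+UA (log2 fold change -1.37 ± 0.19 SE, edgeR adjusted p = 0.00704). UA+DSS against DSS lowered those 6 genes and raised Dio1 and Aldh1a1 (median -1.33), and DSS+UA against DSS lowered Hsd11b1, Ch25h, Rdh10, Aldh1a2 and Dio2 (median -1.04).

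The thyroid hormone deiodinases were chosen after their values were seen. Dio2, which activates thyroid hormone, was at 0.259, 0.388 and 0.374 CPM in Con, 13.9, 34.8 and 40.6 in DSS, 1.28, 0.375 and 6.86 in UA+DSS and 2.53, 0.247 and 2.44 in DSS+UA. It was at 13.9 CPM or more in each DSS library and at 6.86 CPM or less elsewhere (log2 fold change 6.42 ± 1.16 SE, edgeR adjusted p = 0.00477 in DSS against Con). Dio1, which acts in both directions, was at 62.3, 56.9 and 47.3 CPM in Con, 3.66, 1.503 and 4.49 in DSS, 54.0, 58.7 and 21.9 in UA+DSS and 3.32, 32.0 and 10.7 in DSS+UA. Its DSS libraries were below those of Con and UA+DSS (log2 fold change -4.11 ± 0.76 SE, edgeR adjusted p = 0.00539 in DSS against Con, log2 fold change 3.80 ± 0.75 SE, edgeR adjusted p = 0.0131 in UA+DSS against DSS).

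**Figure D5:**
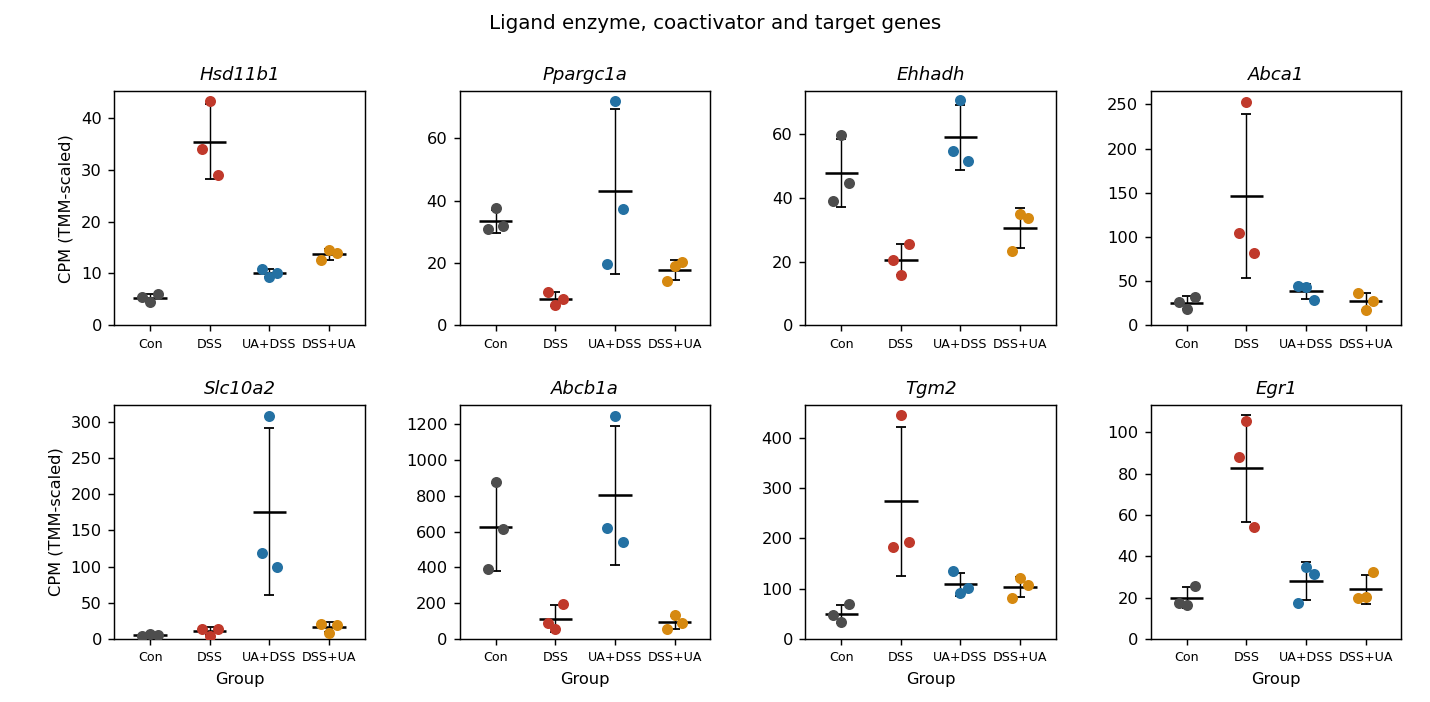
CPM in each library (points), mean (bar) and SD of 3 libraries (whiskers) by group. Shown are a ligand enzyme (Hsd11b1), a coactivator (Ppargc1a), a bile acid transporter (Slc10a2) and an immediate early gene (Egr1). The others are target genes of PPAR (Ehhadh), LXR (Abca1), PXR (Abcb1a) and retinoic acid (Tgm2) receptors. The 3 DSS libraries are the highest for Hsd11b1, Abca1, Tgm2 and Egr1 and the lowest for Ppargc1a.

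Of 17 coregulators, DSS lowered Ppargc1a and Ppargc1b against Con, with a median log2 fold change of -0.16. Ppargc1a (PGC-1α, the coactivator of PPAR and ERR receptors) was at 30.8, 37.6 and 31.7 CPM in Con, 10.8, 6.41 and 8.29 in DSS, 19.8, 71.8 and 37.3 in UA+DSS and 14.1, 18.9 and 20.2 in DSS+UA. DSS held its 3 lowest libraries. It was lower in DSS than in Con (log2 fold change -1.97 ± 0.39 SE, edgeR adjusted p = 0.00608) and higher in UA+DSS than in DSS (log2 fold change 2.33 ± 0.39 SE, edgeR adjusted p = 0.00972). UA+DSS against DSS raised 4 coregulators (Ppargc1a, Ppargc1b, Ncoa7 and Ncoa2; median 0.09), and DSS+UA against DSS called none (median -0.22).

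Of 14 PPAR targets (13 tested), DSS lowered Acadm, Ehhadh, Acaa2 and Cpt1a and raised Angptl4 against Con (median -0.34), and UA+DSS raised 7 against DSS (median 1.12). Ehhadh, a peroxisomal enzyme of fatty acid oxidation, was at 38.996, 59.6 and 44.7 CPM in Con, 20.4, 15.7 and 25.5 in DSS, 54.7, 70.7 and 51.5 in UA+DSS and 23.3, 34.8 and 33.7 in DSS+UA. Its DSS libraries were below all Con and UA+DSS libraries (log2 fold change 1.52 ± 0.24 SE, edgeR adjusted p = 0.00825 in UA+DSS against DSS). Angptl4, a secreted inhibitor of lipoprotein lipase, was at 2.28, 2.22 and 2.62 CPM in Con, 12.8, 71.4 and 29.4 in DSS, 4.94, 18.1 and 19.2 in UA+DSS and 7.64, 4.95 and 9.76 in DSS+UA. Con held its 3 lowest libraries, and DSS overlapped UA+DSS (log2 fold change 3.99 ± 0.67 SE, edgeR adjusted p = 0.00371 in DSS against Con).

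Of 8 LXR targets, DSS raised Abca1 and Abcg1 (median 0.40) and UA+DSS lowered both against DSS (median -1.11). Abca1, a cholesterol exporter, was at 26.5, 18.2 and 32.1 CPM in Con, 105, 253 and 81.5 in DSS, 43.9, 43.2 and 28.8 in UA+DSS and 36.1, 17.01 and 27.7 in DSS+UA. DSS held its 3 highest libraries, with the most in DSS 2 (log2 fold change 2.52 ± 0.44 SE, edgeR adjusted p = 0.00408 in DSS against Con). Abcg1, another sterol exporter, was lower in UA+DSS than in DSS (log2 fold change -1.16 ± 0.26 SE, edgeR adjusted p = 0.0160). The LXR genes themselves, Nr1h2 and Nr1h3, were called in no comparison.

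Of 6 FXR target and bile acid genes (4 tested), none passed in DSS against Con (median -0.28) and 2 rose in UA+DSS against DSS, Slc10a2 and Slc51b (median 3.14). Slc10a2, the apical bile acid transporter, was at 3.26, 6.99 and 4.60 CPM in Con, 14.05, 3.86 and 13.4 in DSS, 119, 308 and 99.2 in UA+DSS and 20.6, 8.23 and 19.2 in DSS+UA. The 3 UA+DSS libraries were far above all others (log2 fold change 4.07 ± 0.64 SE, edgeR adjusted p = 0.00902), and with the position score it did not pass. Fgf15, the classic ileal FXR target, was at or near 0 in all 12 libraries.

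Of 10 PXR and CAR targets (9 tested), DSS lowered Abcb1a, Ces2a and Cyp2c55 and raised Gsta1 against Con (median -1.19), and UA+DSS raised 5 against DSS (median 2.22). Abcb1a, a drug efflux pump, was at 389, 879 and 612 CPM in Con, 90.1, 53.6 and 196 in DSS, 619, 1249 and 539.8 in UA+DSS and 55.8, 131 and 88.5 in DSS+UA. Con and UA+DSS lay above all DSS and DSS+UA libraries (log2 fold change 2.83 ± 0.55 SE, edgeR adjusted p = 0.0122 in UA+DSS against DSS). Gsta1, a glutathione transferase, was at 6.26, 9.93 and 5.61 CPM in Con, 19.9, 35.1 and 16.2 in DSS, 21.7, 29.5 and 20.6 in UA+DSS and 31.2, 23.3 and 31.9 in DSS+UA. Con held its 3 lowest libraries (log2 fold change 1.71 ± 0.32 SE, edgeR adjusted p = 0.00484 in DSS against Con). DSS+UA against DSS called none of these targets (median -0.30).

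Of 5 VDR targets (4 tested) and 7 HNF4 targets (4 tested), none passed in DSS against Con (medians -1.67 and 2.20), UA+DSS against DSS (0.72 and -1.86) or DSS+UA against DSS (1.54 and -1.79). Cyp24a1, the classic VDR target, was at or near 0 in all libraries. The HNF4 list, of which Fabp1 and Apoa1 are members, summed to 35.6, 2276 and 165 CPM in DSS and 107 to 1141 CPM in Con. DSS 2 alone was above the range of Con, DSS 1 was below it and DSS 3 near its low end, and the positive median stands beside these levels. Of 8 retinoic acid targets (6 tested), DSS raised Tgm2 against Con (median 0.70) and UA+DSS lowered Tgm2 and Stra6 against DSS (median -0.52). Tgm2, a transglutaminase, was at 46.4, 32.9 and 69.6 CPM in Con, 183, 445 and 193 in DSS, 135, 91.8 and 100.3 in UA+DSS and 81.7, 121 and 106 in DSS+UA. DSS held the 3 highest libraries (log2 fold change 2.46 ± 0.38 SE, edgeR adjusted p = 0.00282 in DSS against Con, log2 fold change -1.33 ± 0.37 SE, edgeR adjusted p = 0.0316 in UA+DSS against DSS). Of 11 glucocorticoid and mineralocorticoid targets, DSS raised Dusp1 and Per1 (median 0.75) and UA+DSS lowered Dusp1 against DSS (median 0.41). Among all tested genes 13.9% and 10.5% were called in these directions, so these few calls are not a result about the targets. Dusp1, a phosphatase that is also an immediate early gene, was at 17.998, 23.8 and 23.9 CPM in Con, 137, 934 and 119.7 in DSS, 29.3, 36.2 and 43.7 in UA+DSS and 32.2, 43.8 and 43.5 in DSS+UA. All DSS libraries were above all others, with DSS 2 the highest (log2 fold change 4.18 ± 0.73 SE, edgeR adjusted p = 0.00422 in DSS against Con, log2 fold change -3.45 ± 0.70 SE, edgeR adjusted p = 0.0137 in UA+DSS against DSS). Epithelial sodium channel genes, the classic aldosterone targets, were not called in these 2 comparisons.

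Of the 10 other nuclear receptors in the mouse genome listed (6 tested), DSS lowered the circadian repressors Nr1d1 and Nr1d2 against Con (median -0.82), and UA+DSS raised Nr1d1 and Nr1d2 against DSS (median 0.22). Nr1d1 (REV-ERBα) was at 82.8, 45.9 and 76.4 CPM in Con, 22.6, 15.9 and 20.1 in DSS, 48.3, 68.8 and 35.6 in UA+DSS and 17.5, 34.8 and 20.8 in DSS+UA. Its DSS libraries were below those of Con and UA+DSS (log2 fold change -1.81 ± 0.33 SE, edgeR adjusted p = 0.00429 in DSS against Con, log2 fold change 1.38 ± 0.32 SE, edgeR adjusted p = 0.0178 in UA+DSS against DSS). Rora, an activator at the same sites, fell in DSS+UA against DSS. With the position score as a covariate, none of the genes of the lists of targets, enzymes, coregulators, immediate early genes and other receptors passed in UA+DSS against DSS.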

How the data were processed

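RNA-seq of 12 colon samples (4 groups of 3, grouped by the labels) was used, with FastQC, HISAT2, Cuffdiff and GRCm38 named in the submitters' processing notes. The authors deposited raw read counts per gene, 1 file per sample. The study's methods credit the gene counts to HISAT2, an aligner. The annotation and use of strand were not given in the sources used here, so reads of overlapping genes cannot be told apart. Of 54532 genes, 37 rows name no gene symbol (0.0036% of counts).

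Counts were scaled by TMM and tested in edgeR 4.0.16 (R 4.3.3) with filterByExpr, 1 robust quasi-likelihood fit of all 12 libraries (common biological coefficient of variation 0.352) and Benjamini-Hochberg adjustment over 17658 genes, which hold 99.8% of the counts. The fit was checked on simulated counts. Alternatives were RLE, upper-quartile or no scaling factors, no filter, a minimum of 10 counts in every sample, DESeq2 1.42.0, limma-voom (limma 3.58.1), the 2 groups alone, a replicate block, the position score and leaving out each library. Leaving out DSS 2 and DSS+UA 3 together was chosen after seeing the data. Exon lengths and overlaps came from the GRCm38 annotation and promoters from RefSeq (36 of 39 matched).

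The members and all gene lists (targets of PPAR, LXR, FXR, PXR and CAR, VDR, retinoic acid, glucocorticoid and HNF4 receptors, ligand enzymes, coregulators, other receptors, immediate early genes, cell markers and Hox genes) were chosen with earlier results of these data known. Library values are given for each called receptor and the most abundant of its class, and of each list the called gene with the smallest p in DSS against Con and in UA+DSS against DSS is named. Some genes of the lists are not reported here, so the called genes named for a list need not be all of those called.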

Additional observations from a re-analysis of the deposited data

Results flagged for a closer look

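The effect of early UA (UA+DSS against DSS) and that of late UA (DSS+UA against DSS) share the DSS libraries, so their difference equals UA+DSS against DSS+UA, tested in the edgeR fit. It passed for 10 receptors, all with a higher value under early UA. Among them, Nr2e3 had passed the filter only through UA+DSS, so its value is a description. On the log2 scale the difference was 3.47 for Ppara, 4.03 for Nr2e3, 1.30 for Nr5a2, 1.26 for Nr3c1, 1.21 for Nr2c2, 1.18 for Hnf4g, 1.14 for Rxra, 1.14 for Nr6a1, 1.02 for Thra and 0.65 for Rarg. In the fit with the position score none of the 10 passed, and the differences were 0.48, 0.80, 0.83, 0.34, 0.41, -0.25, -0.45, 1.05, 0.87 and 0.35 in the same order. The position score separates the 6 libraries in the same way as the treatment, so the share of either cannot be told apart. Early UA was also given for more days than late UA (7 and 4), so timing and length of dosing cannot be told apart.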

How the results depend on the processing

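Counts of called receptors depended on the libraries and the setting. In DSS against Con the 17 calls became 9 in a fit of the 2 groups alone, 11 without DSS 2 and DSS+UA 3 together (chosen after seeing the data), and 10 to 18 when 1 library at a time was left out. In UA+DSS against DSS the 18 became 0 with the position score, 6 without those 2 libraries and 0 to 20 without 1 library. In DSS+UA against DSS the 8 became 4 without the filter, 3 with the replicate block, 0 with the position score, 0 in the 2 groups alone, 5 with limma-voom, 0 without those 2 libraries and 0 to 9 without 1 library. UA+DSS against Con had 0 calls, 3 with DESeq2, and 0 to 0 without 1 library. In DSS+UA against Con the 5 became 3 with the position score, 11 with DESeq2 and 2 to 9 without 1 library. In UA+DSS against DSS+UA the 10 became 0 with the position score, 6 without the 2 libraries and 4 to 14 without 1 library. With the position score Rxra and Hnf4g reversed there, to -0.45 and -0.25. Scaling by library size alone moved the median of all genes from -0.02 to -0.12 in UA+DSS against DSS and from 0.02 to -0.11 in DSS+UA against DSS, and left 18 and 8 receptors called there. RLE and upper-quartile scaling kept all 58 calls of a receptor in a comparison. The cause of these changes was not tested.

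No pairing of the samples by replicate number was seen. Deviations of same-numbered libraries correlated at -0.216 to 0.187 (median 0.0412) and those of other numbers at -0.289 to 0.240 (median -0.0228). With 3 libraries a group these correlations cannot exclude a pairing. The replicate block kept 53 of the 58 calls, and lost 5 of the 8 in DSS+UA against DSS.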
